A study of Mus musculus with 22 samples.

Results

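The citric acid cycle enzymes described here are the products of 9 genes, chosen by symbol: Cs, Idh2, Idh3a, Idh3b, Ogdh, Dlst, Sucla2, Fh1 and Mdh2. Each was represented by 1 probe set of the Clariom S Mouse array, out of 22206 gene probe sets, and all 9 had a mean log2 intensity above 4, the minimum that 21092 probe sets passed to be tested. RNA came from whole hearts of 22 male C57/BL6NCr mice aged 3 to 6 months and kept at 30 °C, a temperature at which mice are not cold-stressed. They were wild type or TRα1+m, that is heterozygous for the R384C mutation of thyroid hormone receptor α1, which weakens the response of this receptor to its hormone. For 12 days the mice drank water with 0.01% bovine serum albumin, either alone or with T3, the hormone that binds the receptor, added at 0.5 mg/L. Wild type made up 6 control and 6 T3-treated animals, and TRα1+m 5 control and 5 T3-treated animals, with 1 array for each mouse. The mutation is carried in the germ line and is therefore present in all cells of the animal and throughout development, and whether the wild-type mice of these arrays were littermates of the mutants is stated neither in the labels nor in the methods.

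The citric acid cycle runs in the mitochondrial matrix, where it oxidises the acetyl groups delivered by fatty acid, ketone body and pyruvate oxidation and passes the electrons on to the respiratory chain. The heart, which beats without pause, holds many mitochondria and covers most of its energy need in this way. Citrate synthase (Cs) opens the cycle, isocitrate is oxidised by the NAD-dependent enzyme built of Idh3a, Idh3b and Idh3g subunits or by the NADP-dependent enzyme Idh2, and 2-oxoglutarate by a complex of Ogdh, Dlst and Dld. Succinate-CoA ligase, succinate dehydrogenase, fumarase (Fh1) and malate dehydrogenase (Mdh2) close the circle. Thyroid hormone is known to raise the oxygen use of the heart.

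On the array level, the genotypes lay on different scales. The median gene probe set had a deposited log2 intensity of 6.46 to 6.63 on wild-type arrays and of 6.99 to 7.09 on TRα1+m arrays, and the shift depended on the level. On water its median was 0.47 for 12713 probe sets with a mean level of 4 to 8 and -0.06 for 241 probe sets of 16 to 20, where 6 of the 9 genes lie. Genotype differences are therefore taken from values that were quantile-normalized over the 22 arrays together. This makes the distributions of all arrays equal, and medians of 0.00 and -0.03 in these classes follow from it. The shift coincided with the genotype on every array, and its source was not tested. T3 effects, which compare arrays within a genotype, are given from the deposited values. Thra, which encodes the mutated receptor, was 1.39 ± 0.14 higher in TRα1+m on water (adjusted p = 9e-08, limma, higher in 5 of 5 arrays), although its intensity sums over both alleles and does not show the mutation. Array 3 of wild type on water and array 6 of wild type on T3 stood apart from the rest on principal component 3, which held 7.63% of the variance, and results that change without them are named. All differences are log2 differences ± the standard error of the limma fit, and an adjusted p below 0.05 (Benjamini-Hochberg over all 21092 probe sets) counts as called.

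Start sites of 8 of the 9 genes had a RefSeq promoter window of 300 bases, 250 before and 50 after the start, on the build GRCm38.p6. Idh3a was without one in the table used. The windows of the gene with the largest T3 effect among the 9, Idh2, and of the 3 genes whose level was higher in treated TRα1+m than in untreated wild-type hearts, Idh3b, Dlst and Sucla2, are shown so that the sequence upstream of the genes that moved can be read. They run 5′ to 3′ on the strand of the gene, and capitals mark a match to a searched motif.
Idh2 (chr7:80115301-80115600, minus strand): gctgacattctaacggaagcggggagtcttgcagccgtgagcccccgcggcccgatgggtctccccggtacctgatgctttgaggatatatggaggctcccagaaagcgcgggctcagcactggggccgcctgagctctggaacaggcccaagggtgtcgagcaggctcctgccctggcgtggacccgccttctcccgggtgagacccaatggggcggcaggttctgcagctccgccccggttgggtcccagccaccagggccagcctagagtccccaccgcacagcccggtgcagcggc
Idh3b (chr2:130284402-130284701, minus strand): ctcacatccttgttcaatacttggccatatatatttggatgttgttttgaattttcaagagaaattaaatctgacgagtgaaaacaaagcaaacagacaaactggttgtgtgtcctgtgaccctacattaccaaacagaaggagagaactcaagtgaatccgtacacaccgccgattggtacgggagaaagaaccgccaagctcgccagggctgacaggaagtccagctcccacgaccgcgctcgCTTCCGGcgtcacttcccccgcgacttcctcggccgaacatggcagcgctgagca
Dlst (chr12:85110583-85110882, plus strand): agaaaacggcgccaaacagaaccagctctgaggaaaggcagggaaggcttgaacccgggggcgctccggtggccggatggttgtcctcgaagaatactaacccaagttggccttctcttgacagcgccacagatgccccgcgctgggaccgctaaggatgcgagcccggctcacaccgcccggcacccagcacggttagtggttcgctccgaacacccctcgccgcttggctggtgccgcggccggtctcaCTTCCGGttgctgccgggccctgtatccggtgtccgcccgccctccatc
Sucla2 (chr14:73552536-73552835, plus strand): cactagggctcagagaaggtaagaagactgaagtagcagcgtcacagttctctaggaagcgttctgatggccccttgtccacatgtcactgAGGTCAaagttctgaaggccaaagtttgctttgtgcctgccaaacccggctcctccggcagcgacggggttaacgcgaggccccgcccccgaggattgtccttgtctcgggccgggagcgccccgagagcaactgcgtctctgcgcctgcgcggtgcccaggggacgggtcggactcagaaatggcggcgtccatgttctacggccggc
Both strands were searched for the core AGGTCA that many nuclear receptors recognise, for its direct repeat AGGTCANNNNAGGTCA that thyroid hormone receptors favour, and for TNAAGGTCA, the element of oestrogen-related receptors. The last 2 motifs contain the core. Also searched were GCATGCGC (NRF1), CCGGAAG (ETS factors, among them the GABPA subunit) and CACGTG (E-box). Of 32817 windows of this length, 16.3% held the core, 0.0152% the direct repeat, 1.28% the oestrogen-related receptor element, 2.71% the NRF1 motif, 8.86% the ETS motif and 7.15% the E-box. The Idh2 window held no match, and neither did those of Cs and Mdh2. Idh3b carried the ETS motif on the minus strand at position -5 from the start and Dlst carried it on the minus strand at position 2. The core stood at position -159 in Sucla2 and, on the minus strand, at position -188 in Fh1. Ogdh had 6 windows from alternative starts, of which 3 held no match, 1 held the core at -5 and an E-box at -110, and the remaining 2 held the NRF1 motif and an E-box. A match is a run of letters and not a measured binding site.

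The question of the T3 comparison was how the hormone acts on the heart in each genotype. In wild-type hearts T3 lowered Idh2 by 1.96 ± 0.09, which is 3.9-fold, lowered Ogdh by 0.34 ± 0.08 and raised Idh3a by 0.35 ± 0.09 (n = 6 each). The same 3 genes were called in TRα1+m hearts (n = 5 each), Idh2 with a fall of 1.56 ± 0.10, which is 2.95-fold, Ogdh with a fall of 0.47 ± 0.09 and Idh3a with a rise of 0.49 ± 0.10. In wild type 1 of the 9 was thus called higher and 2 lower, where 6.26% and 6.49% of all tested probe sets were called higher and lower. In TRα1+m the counts were again 1 and 2, against 8.24% and 6.92%. The 9 genes had a median difference of -0.11 in wild type and 0.00 in TRα1+m, beside 0.010 and -0.019 over all tested probe sets.

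Idh2 is the mitochondrial isocitrate dehydrogenase that uses NADP and so supplies NADPH for the defence against peroxides. Its deposited level in wild type ran from 17.74 to 17.99 on water, with a median of 17.83, and from 15.73 to 16.10 on T3, with a median of 15.88. In TRα1+m on water the 5 arrays had 17.97, 18.01, 17.99, 17.89 and 17.93. On T3 they had 16.21, 16.42, 16.44, 16.52 and 16.40. All T3 arrays thus lay below all water arrays of their genotype, with a gap many times the spread within a group. The adjusted p was 1.5e-13 in wild type (lower in 6 of 6 arrays, limma) and 4.9e-11 in TRα1+m (lower in 5 of 5 arrays, limma).

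Ogdh, the subunit of the 2-oxoglutarate dehydrogenase complex that decarboxylates its substrate, had deposited levels of 17.63 to 17.81 in wild type on water (median 17.67) and of 17.26 to 17.46 on T3 (median 17.37). In TRα1+m the 5 arrays on water had 17.70, 17.52, 17.42, 17.58 and 17.57 and the 5 on T3 had 17.21, 17.03, 17.07, 17.01 and 17.14. The ranges did not overlap in either genotype, with an adjusted p of 0.0059 for wild type and 0.00067 for TRα1+m (limma). Idh3a, the catalytic subunit of the NAD-dependent isocitrate dehydrogenase, moved the other way. It ran from 17.43 to 17.68 in wild type on water (median 17.57) and from 17.83 to 18.03 on T3 (median 17.89). In TRα1+m it had 17.03, 16.73, 17.11, 17.13 and 17.03 on water and 17.34, 17.42, 17.65, 17.56 and 17.51 on T3. Again no T3 array fell within the range of the water arrays of its genotype, with an adjusted p of 0.012 for wild type and 0.0011 for TRα1+m (limma). Without the arrays that stood apart, the Idh3a rise in wild type was 0.30 (adjusted p = 0.059), which left 2 genes called there.

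**Figure D1:**
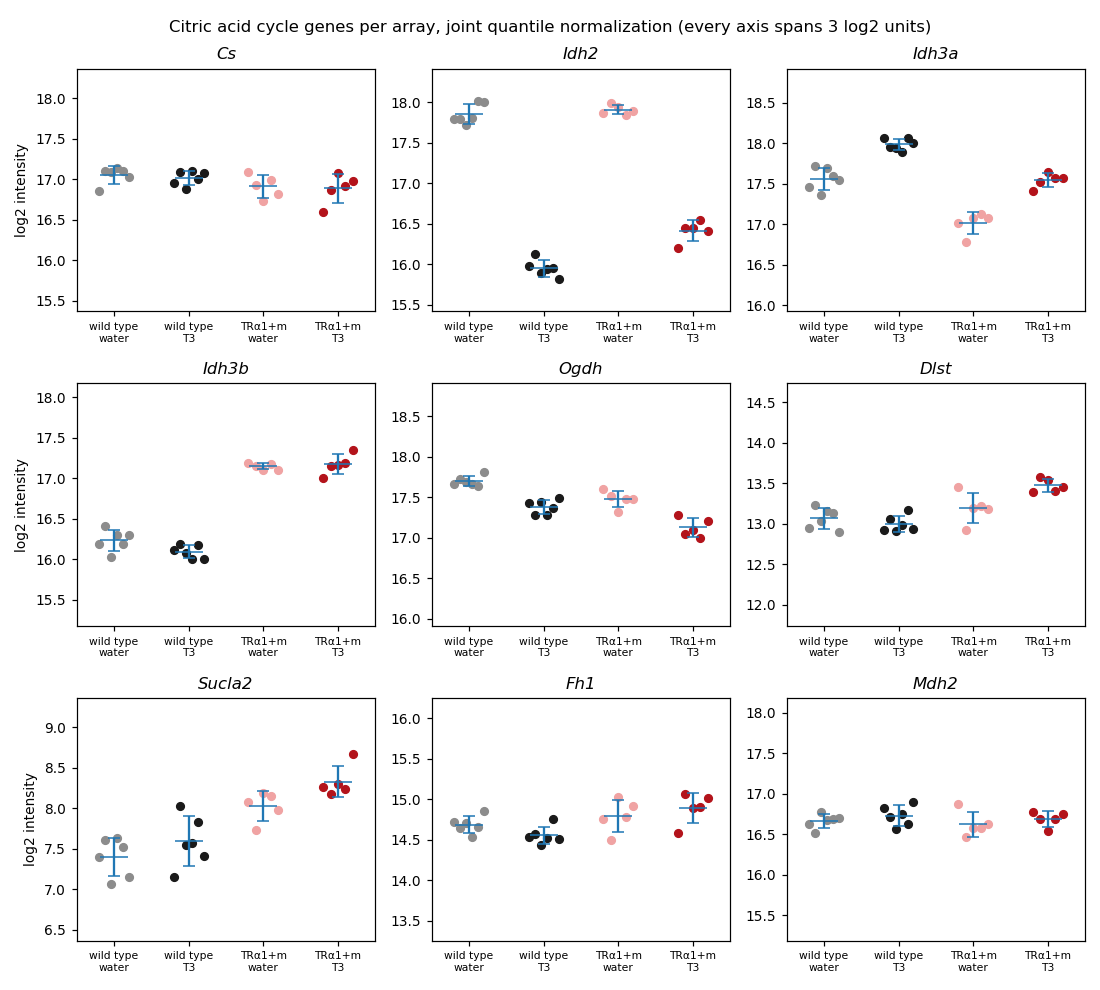
Log2 intensity of the 9 genes on each of the 22 arrays after joint quantile normalization, by genotype and treatment, with every vertical axis spanning 3 log2 units. Each point is an array, the blue bar is the group mean and its whiskers are 1 SD; Idh2 falls on T3 in both genotypes, from 17.85 to 15.95 and from 17.91 to 16.41, and Idh3b separates the genotypes.

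For the other 6 genes the T3 effect was not called in either genotype. For Cs, often used as a measure of mitochondrial content, the difference was -0.11 ± 0.09 in wild type (95% confidence interval -0.31 to 0.08) and -0.02 ± 0.10 in TRα1+m (-0.23 to 0.20). For Mdh2, which regenerates oxaloacetate, it was 0.09 ± 0.09 (-0.10 to 0.28) and 0.00 ± 0.10 (-0.21 to 0.21). Each of these intervals included 0, but that of Cs in wild type reached -0.31, near the called Ogdh difference of -0.34. Idh3b, a regulatory partner of Idh3a, had -0.17 ± 0.09 in wild type (-0.34 to 0.01) and 0.00 ± 0.10 in TRα1+m (-0.19 to 0.20). Fh1, which hydrates fumarate, had -0.18 ± 0.10 (-0.39 to 0.03) and 0.04 ± 0.11 (-0.19 to 0.28). Sucla2, the subunit that makes succinate-CoA ligase specific for ADP, had 0.18 ± 0.14 (-0.12 to 0.47) and 0.26 ± 0.16 (-0.06 to 0.58). Its intervals were the widest of the 9, and its probe set was dim: deposited wild-type levels of 6.92 to 7.87 stood above medians of 6.14 to 6.28 for the negative-control probe sets of these arrays. Dlst, the core of the 2-oxoglutarate dehydrogenase complex, had -0.08 ± 0.10 in wild type (-0.30 to 0.13) and 0.26 ± 0.11 in TRα1+m (0.03 to 0.49, adjusted p = 0.14, limma).

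**Figure D2:**
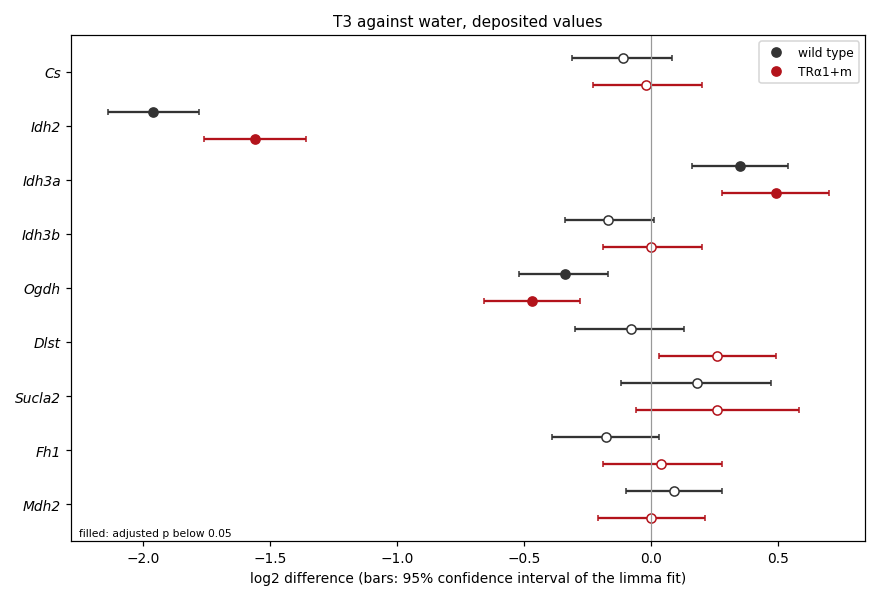
Log2 difference of T3 against water for the 9 genes in wild type (dark) and TRα1+m (red), from the deposited values, with the 95% confidence interval of the limma fit. Filled points have an adjusted p below 0.05; these are Idh2, Idh3a and Ogdh in both genotypes, and the Idh2 effect of -1.96 and -1.56 stands apart from the rest.

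Whether the T3 effect differed between the genotypes was tested as an interaction, in which 0.185% of all tested probe sets were called higher and 0.0901% lower. Of the 9 genes 0 were called by limma, 0 by a model without moderation, and 2 had an unadjusted p below 0.05. These were Idh2, whose fall was smaller in TRα1+m by 0.40 ± 0.13 (95% confidence interval 0.13 to 0.67, adjusted p = 0.33, limma), and Dlst with 0.34 ± 0.15 (0.03 to 0.66, adjusted p = 0.6, limma). With a trended and robust variance the Idh2 interaction was called (0.40, adjusted p = 0.04). For Idh3a and Ogdh the interaction was 0.15 ± 0.14 (-0.14 to 0.43) and -0.12 ± 0.12 (-0.38 to 0.13).

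The comparison of genotypes on water asked what the mutant receptor changes at the hormone level of the untreated animal. After quantile normalization Idh3b was 0.91 ± 0.09 higher in TRα1+m hearts, which is 1.88-fold, and Sucla2 was 0.63 ± 0.15 higher, while Idh3a was lower with a difference of -0.55 ± 0.09 and Ogdh with -0.22 ± 0.09. Of the 9 genes 2 were thus called higher and 2 lower, beside 19.2% and 20.4% of all tested probe sets. The median difference of the 9 was 0.05, and that of all tested probe sets was -0.010. These wild-type water arrays also serve as controls for the wild-type T3 effect, and the TRα1+m water arrays for the TRα1+m T3 effect.

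Within the NAD-dependent isocitrate dehydrogenase the subunits thus differed in opposite directions. Quantile-normalized Idh3b ran from 16.03 to 16.41 on the 6 wild-type water arrays (median 16.24) and had 17.18, 17.16, 17.11, 17.18 and 17.11 on the 5 TRα1+m water arrays. The groups lay far apart and the mutant arrays close together (adjusted p = 1.1e-07, limma, higher in 5 of 5 arrays). Idh3a ran from 17.36 to 17.72 in wild type (median 17.57) and had 17.01, 16.78, 17.08, 17.12 and 17.07 in TRα1+m. The ranges did not overlap here either (adjusted p = 7.5e-05, limma, lower in 5 of 5 arrays). Sucla2 ran from 7.06 to 7.63 (median 7.46) in wild type and had 8.08, 7.73, 8.18, 8.15 and 7.98 in TRα1+m. The highest wild-type array came close to the lowest mutant array (adjusted p = 0.0017, limma). In the deposited values, where dim probe sets are shifted most between the genotypes, the Sucla2 difference was 1.03 ± 0.15. Ogdh ran from 17.64 to 17.82 (median 17.68) in wild type and had 17.60, 17.51, 17.32, 17.48 and 17.48 in TRα1+m (adjusted p = 0.045, limma). This call was lost in the deposited values (-0.14, adjusted p = 0.17), without the arrays that stood apart (-0.22, adjusted p = 0.06), with the replicate number as a block (-0.20, adjusted p = 0.091) and when any of 14 of the 22 arrays was left out, with adjusted p from 0.05 to 0.12.

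The 5 other genes were not called on water. Idh2 differed by 0.05 ± 0.09 (95% confidence interval -0.14 to 0.24), Mdh2 by -0.04 ± 0.09 (-0.24 to 0.15), Fh1 by 0.11 ± 0.11 (-0.11 to 0.33), Dlst by 0.13 ± 0.10 (-0.08 to 0.33) and Cs by -0.14 ± 0.10 (-0.35 to 0.06). Where every array was instead centred on its median gene probe set, which shifts bright and dim genes alike, 8 of the 9 were called, 2 higher and 6 lower, beside 13.2% and 29.9% of all tested probe sets under that scaling. The median of the 9 was then -0.39, and Idh2 and Fh1 turned to -0.39 and -0.32.

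Among T3-treated hearts more of the genes were called between the genotypes, 5 higher and 2 lower in TRα1+m, beside 17.8% higher and 17.8% lower of all tested probe sets. Idh3b was 1.08 ± 0.09 higher (2.11-fold, adjusted p = 1.5e-08), Sucla2 0.74 ± 0.15 (adjusted p = 0.00052), Dlst 0.48 ± 0.10 (adjusted p = 0.00078), Idh2 0.46 ± 0.09 (adjusted p = 0.0005) and Fh1 0.34 ± 0.11 (adjusted p = 0.018, limma for all). Idh3a was lower with -0.44 ± 0.09 (adjusted p = 0.00077, limma) and Ogdh with -0.25 ± 0.09 (adjusted p = 0.025, limma). The median difference of the 9 was 0.34, beside 0.000 over all tested probe sets, but -0.10 when centred on the median gene probe set and 0.02 when centred on the negative controls. Whether a gene was called in treated hearts alone does not show that its genotype difference changed with T3, which is the interaction given above.

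Quantile-normalized Idh2 on T3 ran from 15.81 to 16.12 in wild type (median 15.95) and had 16.20, 16.45, 16.45, 16.55 and 16.41 in TRα1+m. Every mutant array lay above every wild-type array. Dlst ran from 12.91 to 13.17 (median 12.96) and had 13.40, 13.58, 13.54, 13.40 and 13.46, again without overlap. Idh3b ran from 16.00 to 16.19 (median 16.10) against 17.00, 17.15, 17.17, 17.19 and 17.35. Idh3a ran from 17.90 to 18.07 (median 17.98) against 17.41, 17.52, 17.65, 17.57 and 17.57, so the treated mutants stayed below the treated wild-type hearts although Idh3a rose with T3 in each genotype. Sucla2 ran from 7.16 to 8.03 (median 7.56) against 8.26, 8.17, 8.30, 8.23 and 8.67. Fh1 overlapped, with 14.44 to 14.76 (median 14.53) against 14.59, 15.07, 14.89, 14.91 and 15.02, and Ogdh overlapped with 17.28 to 17.49 (median 17.40) against 17.28, 17.05, 17.10, 17.00 and 17.21. Both calls were lost when a single array was left out. Without TRα1+m T3 array 2, Fh1 had 0.29 (adjusted p = 0.053) and Ogdh -0.24 (adjusted p = 0.059), and without TRα1+m T3 array 4 Ogdh had -0.22 (adjusted p = 0.068). Ogdh was also lost with the replicate block (-0.23, adjusted p = 0.056) and without the arrays that stood apart (-0.23, adjusted p = 0.052). With every array centred on its median gene probe set, the Idh2 and Dlst differences were 0.01 and 0.05 and were not called, and that of Fh1 turned to -0.10. Cs (-0.63, adjusted p = 9.3e-05) and Mdh2 (-0.59, adjusted p = 5.7e-05, limma) were then called lower, so that the balance turned to 2 higher and 4 lower, beside 11% and 28.1% of all tested probe sets.

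**Figure D3:**
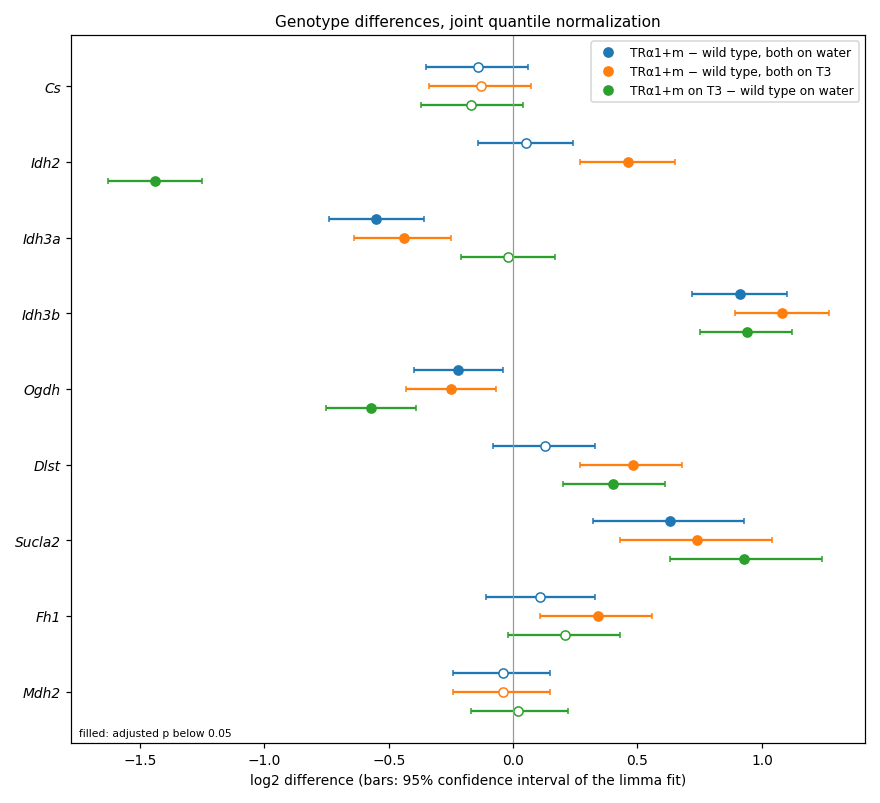
Log2 difference between genotypes for the 9 genes after joint quantile normalization, on water (blue), on T3 (orange) and for TRα1+m on T3 against wild type on water (green), with the 95% confidence interval of the limma fit and filled points where the adjusted p was below 0.05. Idh3b lies between 0.91 and 1.08 in all 3 comparisons, and Idh2 has -1.44 in the last. Idh3a has -0.02 in the last, or -0.59 and -0.35 when the arrays are centred on the median gene probe set or the negative controls. Such centring lowers the Idh3b difference by the same amount as that of Idh3a, though Idh3b stays called.

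The comparison of T3-treated TRα1+m hearts with untreated wild-type hearts asked how far the treatment brings the mutant to the wild-type state. Of the 9 genes 3 were called higher (21.2% of all tested probe sets) and 2 lower (19.6%), with a median of 0.02 beside 0.015 over all tested probe sets. Idh3b (0.94 ± 0.09, adjusted p = 4.7e-08), Sucla2 (0.93 ± 0.15, adjusted p = 3.2e-05) and Dlst (0.40 ± 0.10, adjusted p = 0.0025) were higher in treated mutants, each in 5 of 5 arrays (limma). Idh2 (-1.44 ± 0.09, adjusted p = 1.7e-10) and Ogdh (-0.57 ± 0.09, adjusted p = 1.9e-05) were lower, also in 5 of 5 arrays (limma). Idh3a, lower in untreated mutants, differed by -0.02 ± 0.09 after treatment, with a 95% confidence interval of -0.21 to 0.17. This depended on the scaling, since Idh3a was called lower when the arrays were centred on the median gene probe set (-0.59, adjusted p = 0.00011) or on the negative controls (-0.35, adjusted p = 0.0077, limma). Mdh2 differed by 0.02 ± 0.09 (-0.17 to 0.22), Cs by -0.17 ± 0.10 (-0.37 to 0.04) and Fh1 by 0.21 ± 0.11 (-0.02 to 0.43). Centred on the median gene probe set, Dlst turned to -0.06, Fh1 to -0.30 and Mdh2 to -0.53, and 2 of the 9 were called higher and 6 lower, beside 13% and 32% of all tested probe sets. Cs was called lower in the deposited values (-0.25, adjusted p = 0.036), and Fh1 higher without TRα1+m T3 array 1 (0.28, adjusted p = 0.039, limma).

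Further cycle genes that were measured were Idh3g, Dld, Suclg1, Suclg2 and the 4 succinate dehydrogenase subunits Sdha to Sdhd. In wild type T3 lowered Suclg2, the subunit specific for GDP, by 0.62 ± 0.11 (adjusted p = 0.0003) and Sdha, the flavoprotein of succinate dehydrogenase, by 0.37 ± 0.10 (adjusted p = 0.015), and raised Suclg1, the subunit shared by both succinate-CoA ligases, by 0.37 ± 0.11 (adjusted p = 0.02, limma for all). The other 5 of 8 were not called. Of all tested probe sets 6.26% were called higher and 6.49% lower in wild type. In TRα1+m Suclg2 fell by 0.43 ± 0.12 (adjusted p = 0.015) and Sdha by 0.34 ± 0.11 (adjusted p = 0.039, limma), and 6 of 8 were not called. The shares of all tested probe sets were 8.24% higher and 6.92% lower. Between genotypes on water 4 of the 8 were higher in TRα1+m, namely Sdha by 0.83 ± 0.11 (adjusted p = 3.5e-06), Sdhc, a membrane anchor, by 0.66 ± 0.12 (adjusted p = 0.00016), Idh3g, the third subunit of the NAD-dependent isocitrate dehydrogenase, by 0.50 ± 0.09 (adjusted p = 0.00012) and Suclg2 by 0.48 ± 0.11 (adjusted p = 0.0017, limma for all). On T3 these 4 and also Dld (0.27 ± 0.09, adjusted p = 0.027) and Sdhd (0.22 ± 0.09, adjusted p = 0.047, limma) were higher. Of all tested probe sets 19.2% were called higher and 20.4% lower on water, and 17.8% each on T3. Some genotype calls of these enzymes were lost under other scalings, whereas the Idh3b calls were kept. Centring shifts every gene of a comparison by the same amount from its deposited difference, so the Idh3b differences became smaller too. Centred on the median gene probe set, Idh3g, Suclg2 and Sdhc had 0.02, 0.13 and 0.22 on water and were not called, and on T3 Idh3g, Dld and Sdhd turned to -0.12, -0.21 and -0.21. Of the T3 effects, that on Sdha in TRα1+m was not called after quantile normalization (-0.29, adjusted p = 0.082) or centred on the negative controls (-0.18, adjusted p = 0.33, limma). Centred on the negative controls, Suclg2 in TRα1+m (-0.26, adjusted p = 0.16) and Sdha in wild type (-0.28, adjusted p = 0.08) were not called, nor was Suclg1 in wild type when centred on the median gene probe set (0.35, adjusted p = 0.065, limma).

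**Figure D4:**
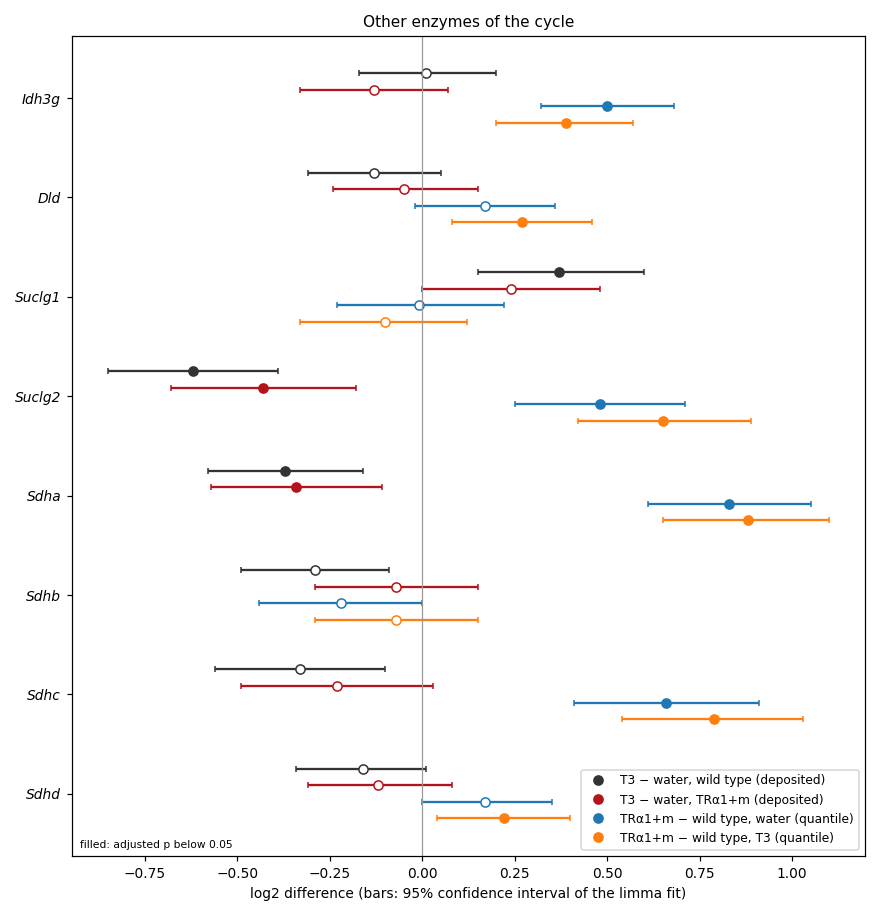
Log2 differences of 8 further cycle enzymes for T3 against water in wild type (dark) and TRα1+m (red), from deposited values, and for TRα1+m against wild type on water (blue) and on T3 (orange), after quantile normalization, with 95% confidence intervals and filled points where the adjusted p was below 0.05. Suclg2 and Sdha lie below 0 on T3 in both genotypes and above 0 in TRα1+m under both treatments.

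Read by enzyme complex, called subunits differed in direction in some comparisons, and the comparison shown is not the same for each complex. Differences between subunits were not tested. In the NAD-dependent isocitrate dehydrogenase of untreated mutants, Idh3b and Idh3g were higher (0.91 and 0.50) and Idh3a lower (-0.55). Centring on the median gene probe set took Idh3g from 0.52 in the deposited values to 0.02, without a call. Idh3b, with 0.89 in the deposited values, was lowered by the same amount but stayed called. In the 2-oxoglutarate dehydrogenase complex of treated mutants, set against treated wild type, Dlst and Dld were higher (0.48 and 0.27, 0.05 and -0.21 when centred on the median gene probe set) and Ogdh lower (-0.25). The Ogdh call was lost when either of 2 arrays was left out, with the replicate block and without the arrays that stood apart. In succinate-CoA ligase on T3 in wild type, Suclg1 rose (0.37), Suclg2 fell (-0.62) and Sucla2 had 0.18 without a call. Centred on the median gene probe set, the Suclg1 rise was not called (0.35, adjusted p = 0.065, limma). In succinate dehydrogenase of untreated mutants Sdha and Sdhc were higher (0.83 and 0.66, the latter 0.22 when so centred). Sdha, with 0.89 in the deposited values, was lowered by the same amount as Sdhc but stayed called. Sdhb (-0.22) and Sdhd (0.17) were not called there. Probe set intensities do not give subunit ratios, since probes differ in brightness, and only the differences are compared.

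Enzymes that share a reaction with the cycle but lie outside it were also followed. Idh1, the cytosolic relative of Idh2, rose with T3 by 0.41 ± 0.12 in wild type (adjusted p = 0.025) and by 0.57 ± 0.13 in TRα1+m (adjusted p = 0.0039, limma), opposite to Idh2. Me1, the cytosolic malic enzyme and a classical T3 target in liver, rose by 0.50 ± 0.13 (adjusted p = 0.011) and 0.49 ± 0.14 (adjusted p = 0.019, limma). Ogdhl, a relative of Ogdh, rose in TRα1+m by 1.42 ± 0.17 (adjusted p = 1.2e-06), had 0.42 ± 0.15 in wild type (adjusted p = 0.078) and was lower in TRα1+m on water with -1.64 ± 0.17 (adjusted p = 2.1e-07, limma). Its interaction was 1.00 ± 0.23 (adjusted p = 0.069, limma). Mdh1, the cytosolic malate dehydrogenase, had 0.04 ± 0.08 and 0.03 ± 0.09 on T3. Of the 6 genes of this list 2 were called with T3 in wild type and 3 in TRα1+m, all higher, beside 6.26% and 8.24% of all tested probe sets called higher. On water 4 were called between genotypes, all lower, beside 20.4% called lower. Of these, Mdh1 (-0.29) was not called after cyclic loess (-0.17, adjusted p = 0.093, limma). The Me1 rise in TRα1+m was not called when centred on the median gene probe set (0.46, adjusted p = 0.05, limma).

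Of 10 measured enzymes through which carbon enters or leaves the cycle 3 were called with T3 in wild type, all lower, beside 6.49% of all tested probe sets. They were Pccb (-0.50 ± 0.13, adjusted p = 0.011), Mcee (-0.38 ± 0.12, adjusted p = 0.037) and Mmut (-0.40 ± 0.13, adjusted p = 0.041, limma for all, and 0.062 for Mmut after quantile normalization), which serve the path from propionyl-CoA to succinyl-CoA. Centred on the negative controls, Mcee and Mmut were not called (-0.30 and -0.31, adjusted p = 0.13 each, limma). In TRα1+m these genes had -0.31 ± 0.14, 0.02 ± 0.13 and -0.29 ± 0.14 without a call, and the median of the 10 was -0.02. On water 3 of 10 were higher in TRα1+m, Mcee with 0.50 ± 0.12 (adjusted p = 0.0016), Me2 and Me3, although Mcee had 0.07 and Me3 -0.08 when centred on the median gene probe set. Another 3 were lower, Got2, the mitochondrial aspartate aminotransferase, with -0.66 ± 0.09 (adjusted p = 2.9e-06), Oxct1, which activates ketone bodies, with -0.60 ± 0.10 (adjusted p = 4.2e-05) and Mmut with -0.74 ± 0.14 (adjusted p = 0.00021, limma for all). These counts stand beside 19.2% higher and 20.4% lower of all tested probe sets. Glud1 had no probe set under that name and was left out. Of 7 genes for lipoylation, which Dlst needs to work, and for assembly of succinate dehydrogenase, Lipt1, a lipoyl transferase, fell with T3 in wild type by 0.62 ± 0.11 (adjusted p = 0.00025, limma) and had -0.24 ± 0.12 in TRα1+m (adjusted p = 0.21, limma). On water 2 of the 7 were called higher in TRα1+m and 2 lower. Lias, which makes lipoyl groups, had 0.56 ± 0.15 (adjusted p = 0.0042) and Sdhaf3 0.41 ± 0.15 (adjusted p = 0.033), and both were not called when centred on the median gene probe set (0.21 and 0.34). Lipt1 had -0.37 ± 0.12 (adjusted p = 0.015) and Sdhaf4 -0.55 ± 0.18 (adjusted p = 0.021, limma for all), and both were not called in the deposited values (-0.04 each).

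The pyruvate dehydrogenase complex, which feeds acetyl-CoA to citrate synthase, and its kinases and phosphatases were 10 genes. Pdk1 and Pdk2, kinases that switch the complex off, fell with T3 by 1.40 ± 0.11 and 0.87 ± 0.10 in wild type (adjusted p = 2.3e-09 and 1.1e-06) and by 1.41 ± 0.12 and 0.70 ± 0.11 in TRα1+m (adjusted p = 5.3e-09 and 4.1e-05, limma). Dlat, the core subunit of the complex, rose by 0.42 ± 0.09 in wild type (adjusted p = 0.0032) and by 0.75 ± 0.10 in TRα1+m (adjusted p = 9.3e-06, limma). Pdp2, a phosphatase that switches the complex on, had 0.08 ± 0.14 in wild type, rose by 1.08 ± 0.15 in TRα1+m (adjusted p = 1.5e-05) and was called in the interaction (1.00 ± 0.21, adjusted p = 0.032, and 0.053 when centred on the median gene probe set, limma). On water Pdp2 (-1.76 ± 0.14, adjusted p = 7.4e-09), Dlat (-1.25 ± 0.10, adjusted p = 4.8e-09) and Pdhb (-0.89 ± 0.10, adjusted p = 7.1e-07, limma for all) were lower in TRα1+m, and the other 7 of 10 were not called. Of all tested probe sets 20.4% were called lower on water. Pdk4 varied more, with 0.22 ± 0.41 and -0.10 ± 0.45 on T3.

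Among 8 measured regulators of mitochondrial genes 5 fell with T3 in each genotype, beside 6.49% and 6.92% of all tested probe sets, with a list median of -0.52 in wild type and -0.56 in TRα1+m, beside 0.010 and -0.019 over all. Ppara, the receptor that controls fatty acid oxidation, fell by 1.37 ± 0.18 (adjusted p = 9.1e-06) and 1.02 ± 0.20 (adjusted p = 0.0007, limma). Ppargc1a, a coactivator of mitochondrial biogenesis, fell by 1.01 ± 0.12 (adjusted p = 1.7e-06) and 0.91 ± 0.13 (adjusted p = 1.6e-05, limma), and Esrrg, an oestrogen-related receptor, by 0.74 ± 0.13 (adjusted p = 0.00036) and 0.81 ± 0.15 (adjusted p = 0.00029, limma). The others called were Esrrb and Gabpa, of which Gabpa in wild type was not called after quantile normalization (-0.25, adjusted p = 0.065, limma). Centred on the negative controls, Gabpa was called in neither genotype (-0.20, adjusted p = 0.16 in wild type and -0.15, adjusted p = 0.33 in TRα1+m, limma). On water Ppargc1a (0.63 ± 0.12, adjusted p = 0.0003) and Esrrg (0.51 ± 0.13, adjusted p = 0.0032, limma) were higher in TRα1+m, with 0.22 and 0.24 and no call when centred on the median gene probe set. Esrra had no probe set under that name and was left out.

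The hearts were not sorted, and in whole tissue fewer cells of a type and less RNA per cell cannot be told apart. All 12 cardiomyocyte markers lay above the negative-control median in every group, and their summed level was 22.08 to 22.19 in wild type on water, 22.04 to 22.15 on T3, 22.09 to 22.16 in TRα1+m on water and 22.07 to 22.14 on T3. Single markers did differ. With T3 2 of the 12 were called lower in wild type and 1 higher in TRα1+m, and between genotypes 3 were called higher and 3 lower on water and again on T3, among them Tnni3 with 0.48 ± 0.09 (adjusted p = 0.00016) and Ryr2 with -0.82 ± 0.09 (adjusted p = 6.6e-07, limma) on water. The summed level rests on bright probe sets such as that of Mb, whose mean of 19.91 lies near the highest value of the table, 19.93, so it can hide such differences. Of all tested probe sets, 6.26% were called higher and 6.49% lower with T3 in wild type, and 8.24% and 6.92% in TRα1+m. Between genotypes the shares were 19.2% and 20.4% on water and 17.8% each on T3, near which the 3 and 3 of 12 lie. Of 7 measured macrophage markers 6 rose with T3 in wild type and 7 in TRα1+m, and 7 were lower in TRα1+m on water, or 4 in the deposited values. Their summed level was 13.49 to 14.20 in wild type on water, 14.92 to 15.08 on T3, 12.57 to 13.11 in TRα1+m on water and 14.68 to 15.16 on T3. Of 7 fibroblast markers 5 rose with T3 in wild type and 4 in TRα1+m, with summed levels of 17.50 to 17.96, 17.98 to 18.21, 17.64 to 17.95 and 17.96 to 18.07 in the same order of groups. Of 7 endothelial markers 5 rose in each genotype, with summed levels of 15.72 to 16.23, 16.39 to 16.63, 15.93 to 16.06 and 16.34 to 16.66. Lymphocyte markers lay below the negative-control median, 5 of 5 in each group. The part of these cells in the differences of the 9 genes was not tested.

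Across the 22 arrays the 9 genes did not vary as a block. Deviations from the group means correlated between pairs of them with a Pearson r of -0.46 to 0.58 and a median of 0.17, positive in 25 of 36 pairs. Of levels, which carry the group differences, r ran from -0.73 for Idh2 with Idh3a to 0.83 for Idh3b with Sucla2. All points share the array and its normalization, and the values are descriptive. Of 7543 other named genes with a mean above 8, those whose deviations were most like the mean deviation of the 9 over the 22 arrays were Tmcc3 (0.81), Hsd17b4 (0.80), Ckmt2 (0.78), Ndufa9 (0.78), Cox14 (0.77) and Slc44a2 (0.77). Hsd17b4 is an enzyme of peroxisomal fatty acid oxidation, Ckmt2 the mitochondrial creatine kinase of muscle, and Ndufa9 and Cox14 belong to respiratory complex I and to the assembly of complex IV. By level the most like were Adk (0.85), Hsd17b4 (0.80), Pip5k1a (0.75), Apip (0.75), Fitm1 (0.75) and Tle5 (0.75).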

How the data were processed

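RNA of whole hearts was hybridised to 22 Clariom S Mouse arrays, 1 per mouse as the labels count them. The p-values therefore rest on differences among animals, and precision is limited by how many arrays there were. Values are log2 intensities as deposited, 1 for every probe set and array, which the authors made with RMA in version 4.0.1 of the Transcriptome Analysis Console, per the submitters' processing notes and the methods. Whether all arrays were normalized together, and the genome build, are not given in the sources used here. Values end at 19.93, and bright genes close to it are compressed. Names of genes came from the platform annotation, and 1 gene was named by 19572 of 22206 gene probe sets.

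Probe sets with a mean above 4 over all arrays were fitted with limma 3.58.1 in R 4.3.3 (a mean for each of the 4 groups, eBayes, two-sided, Benjamini-Hochberg). This moderated fit took the place of the two-way ANOVA of the study's methods, which, without moderation and with the two-stage adjustment, was an alternative. Quantile normalization over the 22 arrays was used for genotype contrasts. Simulated data with 200 changed probe sets were used to test the fit. The rule for named genes took all 9 genes in every contrast and, from each pathway list, up to 4 called genes with the smallest adjusted p per contrast and up to 2 not called with the largest mean, and fewer are named. The most like genes were the 6 with the highest correlation. The 9 genes, the lists and the motifs were chosen with earlier results of these data known. Replicates shared at most 0.0312% identical values, so no column was a copy of another, and each array was treated as a separate sample. Alternatives were other scalings, filters, variance models and adjustments, a minimum difference of 0.5, a replicate block, fits restricted to the groups compared and leaving out each array. A fit without the arrays that stood apart was chosen after seeing the data.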

Additional observations from a re-analysis of the deposited data

Results flagged for a closer look

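Of 36 groups of values tested for a single far array, 2 were flagged, and chance flags about 1 in 20. For Idh3a in TRα1+m on water, array 2 had a deposited level of 16.73, below the nearest array at 17.03, a gap of 0.753 of the range of the group. For Fh1 in TRα1+m on T3, array 1 had a deposited level of 14.57, below the nearest array at 14.93, a gap of 0.752 of the range.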

How the results depend on the processing

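Over the alternatives for single genes, 1822 values kept their side of the threshold, 34 lost and 16 gained a call, and 9 reversed. A change of sign counted as a reversal only where the main or the alternative fit was called. Values without a call in both fits are among the 1822 even where their sign changed. The 9 reversals so counted came from centring each array on a single value. With the median gene probe set as centre, Idh2 and Fh1 had -0.39 and -0.32 between genotypes on water, Fh1 had -0.10 on T3, and Dlst, Fh1 and Mdh2 had -0.06, -0.30 and -0.53 for treated TRα1+m against untreated wild type. With the median negative control as centre, Idh2 and Fh1 had -0.35 and -0.28 on water, and Mdh2 had -0.30 for treated mutants against untreated wild type. Counts of called genes changed with them to 8 on water under either centre, 2 higher and 6 lower, and to 8 for treated TRα1+m against untreated wild type with the median gene probe set, 2 higher and 6 lower. The genotype shift depended on level, with medians of 0.47, 0.22, 0.08 and -0.06 on water from dim to bright probe sets, and a constant cannot remove such a shift. A minimum difference of 0.5 left 1 gene called for the T3 effect in wild type, 1 for that in TRα1+m and 2 between genotypes on T3. A trended and robust variance called 1 gene in the interaction, and over all probe sets 99 in place of 58, against 100 with array weights. Centred on the negative controls, the T3 effect on Ogdh in wild type was -0.26 (adjusted p = 0.051) and that on Dlst in TRα1+m 0.43 (adjusted p = 0.011, limma). Cyclic loess left Ogdh at -0.08 on water.

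Leaving out each array in turn gave 3 to 3 called genes for T3 in either genotype, 3 to 4 between genotypes on water, 5 to 7 on T3, 5 to 6 for treated mutants against untreated wild type, with 0 to 0 in the interaction. Whether the replicate numbers mark a pairing of the arrays was not tested. Over 31 same-numbered pairs the correlation of deviations ran from -0.27 to 0.33, and 6 of 22 arrays correlated best with their own number. Between water and T3 the same-numbered pairs were all positive in wild type, from 0.03 to 0.29, and ran from -0.12 to 0.13 in TRα1+m. With the replicate block 3 genes were called on water and 6 on T3 between genotypes, Ogdh being lost in each, and it changed no other call. For the pathway lists, 412 values of called genes under other scalings held 11 reversals and 57 lost calls. Each gene had 1 probe set, so another probe set could not be used. Sucla2 lay close to the negative controls, and its standard errors were the largest of the 9.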
